A study of Mus musculus with 9 samples.

Results

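Cell cycle and DNA replication genes were followed in 3T3 fibroblasts, an immortal line from mouse embryos that divides in culture. The 36 genes were chosen by function and cover the D, E, A and B cyclins with their kinases and inhibitors, the factors that license replication origins, the replication fork and nucleotide supply, the mitotic kinases and spindle checkpoint, and the proliferation markers Top2a and Mki67. A probe set annotated to that gene alone was found for 35 of the 36, among the 23410 probe sets with at least 1 annotated gene of 35557 on the array; Ccnb1 was not matched. Genes named alone by a probe set numbered 19938 in all. The wild-type line carried an shRNA with no relevant target, and its groups are unstimulated cells (n = 3) and cells given TNF-α at 5 ng/ml for 1 h (n = 3). Trap-80 knock-down cells, which carried an shRNA against Trap-80 (Med17), a subunit of the Mediator complex, were sampled after the same TNF-α stimulation (n = 3). Each cell line was a clone from retroviral transduction, so the effect of the knock-down and a difference between clones cannot be told apart. The unstimulated knock-down line was not analysed here, so a difference of the lines at rest and one in the response cannot be told apart. Every value below is a log2 signal from the RMA method or a difference of such signals, and each probe set was compared with itself only.

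A dividing cell passes from G1 into S phase when D cyclins with Cdk4 or Cdk6, and then E cyclins with Cdk2, inactivate the RB proteins and release E2F factors. E2F factors drive the genes that load the Mcm helicase on origins, build the replication fork and make nucleotides, whereas the genes of G2 and mitosis are driven later through the MuvB complex with B-Myb and FoxM1. TNF-α is a cytokine that activates NF-κB, and Mediator links such factors to RNA polymerase II.

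Med17 itself had a log2 signal of 8.10, 8.09 and 7.89 in unstimulated wild-type cells, 7.98, 7.93 and 7.77 in stimulated wild-type cells, and 6.35, 6.22 and 6.17 in knock-down cells. It fell by 1.64 on the log2 scale (3.12-fold, limma adjusted p = 4.77e-05) between stimulated wild-type and knock-down cells, with no overlap of the arrays. Over all probe sets, arrays correlated at 0.985 to 0.992 inside a group and at 0.981 to 0.991 across groups. Of 10 fibroblast markers, 3 passed the test in the knock-down comparison, where 5.96% of all probe sets did: Thy1 rose by 2.09, S100a4 rose by 0.55 and Pdgfra fell by 1.89. Of 18 markers of leukocytes, epithelium, endothelium and muscle, 3 had a mean above the median of all probe sets, 4.51 (Cd68 at 5.47, Cd3e at 4.69 and Cdh1 at 4.54). By limma 0 of the 18 passed the test in any comparison, and 3 had an unadjusted p under 0.05 in at least 1 of them. The part of the marker differences in the results below was not tested.

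The arrays that carry the replicate number 3 stood apart in the licensing genes in all 3 groups. In the wild-type groups they did so too in the fork and nucleotide genes and in the E cyclins with Cdk2 and E2f1. This was noticed after the values were seen and is given as a description with no test. Of the 35 genes, 15 had their lowest signal of the group on array 3 in each of the 3 groups, against 7.77% of all probe sets tested and 11.8% of those brighter than the array median. All 8 licensing genes were among the 15, with Ccne1, Ccne2, Cdk2, Cdk6, Pcna, Rrm1 and Rrm2. The licensing genes lay a median of 0.47 below the mean of arrays 1 and 2 in unstimulated wild-type cells, 0.47 below in stimulated wild-type cells and 0.30 below in knock-down cells. For the 5 fork and nucleotide genes the median gap was -0.32 and -0.31 in the wild-type groups but -0.06 in knock-down cells. One of the 5, Tk1, had gaps of -0.38, -0.46 and -0.03 in unstimulated, stimulated and knock-down cells. Another, dimmer probe set of Tk1 had smaller wild-type gaps (-0.03 and -0.20) and 0.10 in knock-down cells. The E cyclins with Cdk2 and E2f1 had median gaps of -0.56, -0.54 and -0.14 in the same order. None of the 6 mitotic kinase and checkpoint genes was lowest on array 3 in all 3 groups, but 5 were in each wild-type group. Their median gaps were -0.17, -0.16 and 0.13. Of all 35 genes, array 3 was lowest for 29 in unstimulated and 28 in stimulated wild-type cells, against 33.0% and 37.1% of all probe sets. For probe sets brighter than the array median these shares were 44.4% and 35.8%. In knock-down cells array 3 was lowest for 15 genes, against 31.0% of all probe sets and 27.4% of the brighter ones. Only 1 of the 35 genes was highest on array 3 in all 3 groups, against 10.0% of all probe sets and 16.0% of the brighter ones. This was Cdkn1b, an inhibitor of Cdk2 complexes, at 0.35, 0.30 and 0.42 above the mean of arrays 1 and 2.

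**Figure D1:**
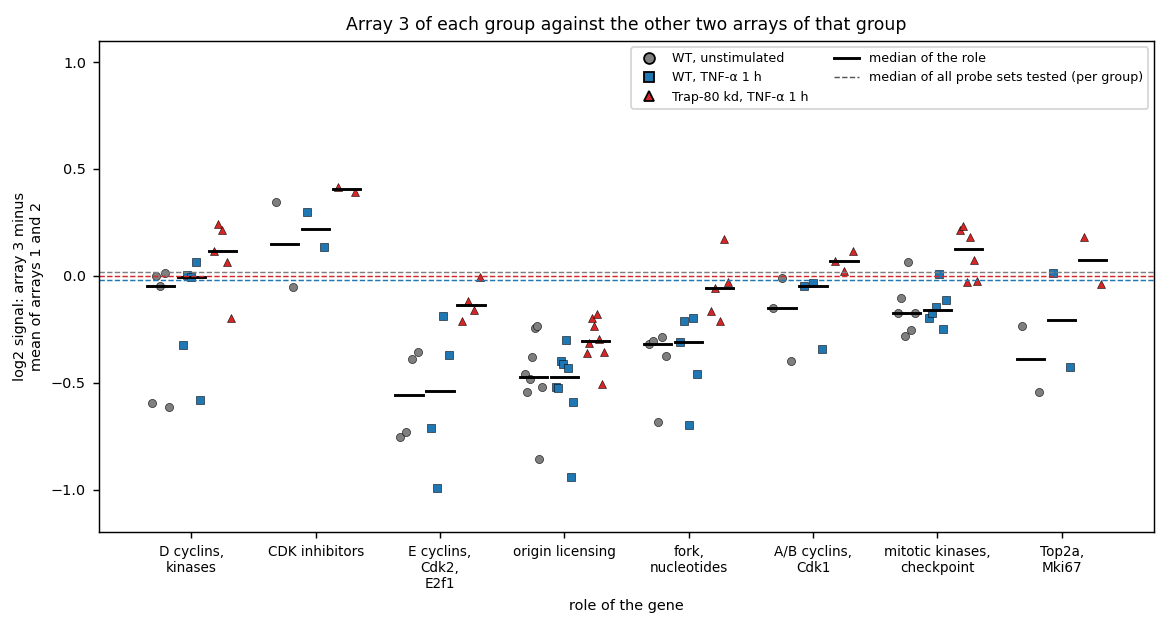
Log2 signal of array 3 minus the mean of arrays 1 and 2 of the same group (vertical axis), for each of 35 genes sorted by role (horizontal axis); grey circles are unstimulated wild-type, blue squares stimulated wild-type and red triangles stimulated knock-down cells, black lines the median of a role, and dashed lines the median of all probe sets tested. All 8 licensing genes lie below 0 in all 3 groups, while the mitotic genes lie on both sides of it.

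The same split can be given as a share of each gene's spread over the 9 arrays. For the licensing genes, a median of 77.9% of the sum of squares went with the array number and 13.3% with the group. For the mitotic kinases and checkpoint genes it was the other way round, with 18.5% for the number and 55.5% for the group. The medians for number and group were 59.9% and 15.3% for the E cyclins with Cdk2 and E2f1. Over all 23410 probe sets the medians were 21.9% and 32.3%. Deviations from the group means of same-numbered arrays correlated over the 35 genes with r between 0.26 and 0.92, a description across genes that share their arrays. What a replicate number marks is not stated in the sources used here. In such bulk samples, fewer cells in S phase and less of these RNAs per cell cannot be told apart.

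**Figure D2:**
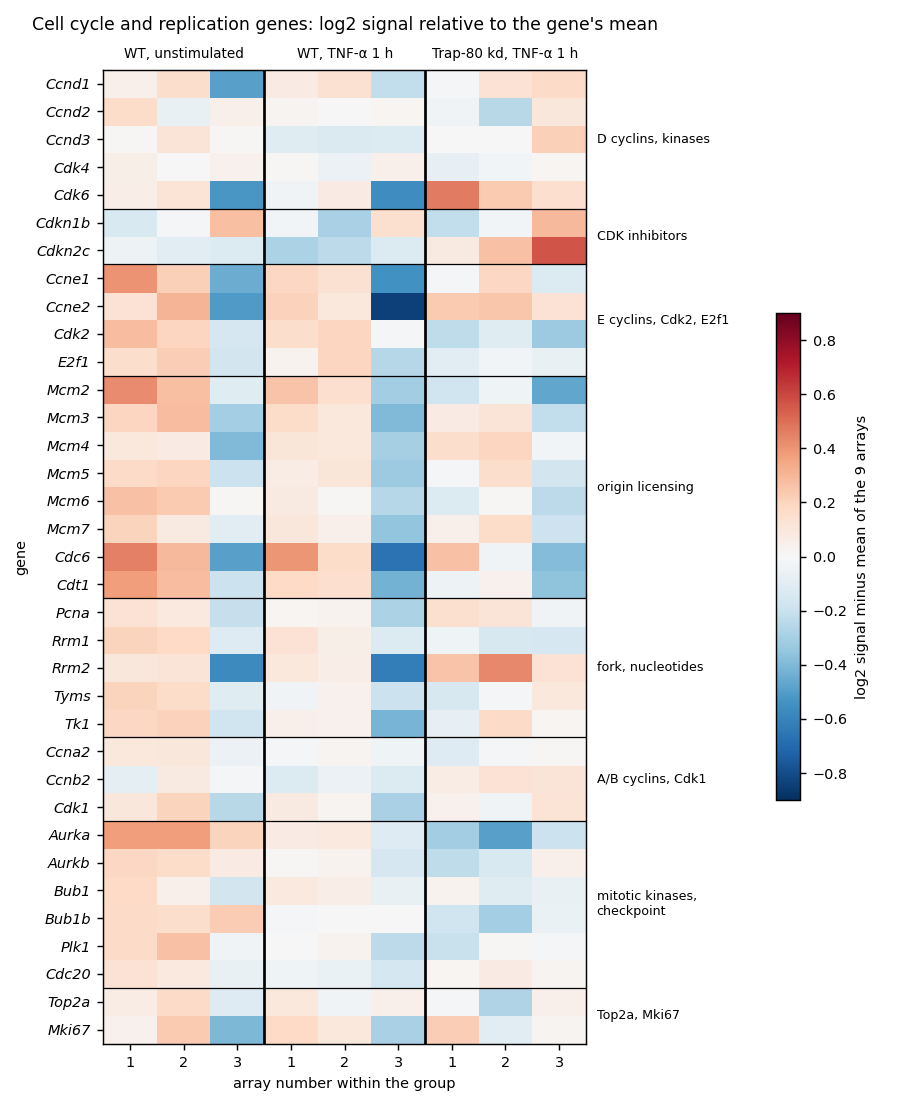
Heat map of 35 genes (rows, grouped by role) on 9 arrays (columns, by group and array number), with colour giving the log2 signal minus that gene's mean over the 9 arrays. Array 3 of both wild-type groups is blue in most rows from Ccne1 to Tk1, and Aurka and Bub1b change from red to blue from the left group to the right.

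Between unstimulated and stimulated wild-type cells, none of the 35 passed the limma test at an adjusted p under 0.05, against 0.115% of all probe sets. None did so with the replicate number as a block, against 0.235%. At an unadjusted p under 0.05, 2 genes were lower, Aurka and Bub1b, and 0 higher (5.71% of the 35, against 7.1% of all). The stimulated arrays did not overlap the unstimulated ones for 4 genes, all lower (Ccnd3, Aurka, Aurkb and Bub1b), against 10.2% of all probe sets in either direction. The difference was within 0.25 on the log2 scale for 34 of 35 genes, all but Aurka, and for 91.9% of all probe sets.

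Most of these small differences lay on the same side of 0. The difference was negative for 30 of 35 genes with a median of -0.10, whereas 54.9% of all probe sets were below 0 with a median of -0.02, and 65.0% of those brighter than the median, where all 35 genes lay, with a median of -0.05. The stimulated array was below the unstimulated array in all 3 same-numbered pairs for 23 of 35 genes (65.7%), against 19% of all probe sets and 28.7% of those brighter than the median. These 23 included all 5 fork and nucleotide genes, 7 of 8 licensing genes and 5 of 6 mitotic kinase and checkpoint genes. The count depended on scaling: 27 genes after centring each array on its median, where all probe sets gave 35.3%, and 17 (48.6%) after quantile normalization, where they gave 17.2%. The median difference stayed negative under both, at -0.16 and -0.07, with 34 and 29 genes below 0, against 70.3% and 52.2% of all probe sets. The 35 genes share the same arrays, so these counts are a description and not separate observations. That same-numbered arrays form pairs is not stated in the sources used here.

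Between stimulated wild-type and knock-down cells, 1 of 35 genes passed the test (2.86%), against 5.96% of all probe sets, and it was higher: Cdkn2c. With the replicate block, 3 genes passed (8.57%), against 9% of all: Cdkn2c and Cdk6 higher and Cdk2 lower. At an unadjusted p under 0.05, 3 genes were higher and 3 lower (17.1%), against 17.4% of all. The arrays did not overlap for 6 higher and 3 lower genes (25.7%), against 20.9%. The median difference was 0.04, with 16 of 35 genes below 0. None of these shares stood far above the background.

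From unstimulated wild-type to stimulated knock-down cells, a comparison that is the sum of the other pair and shares its arrays with both, 2 of 35 genes passed the test (5.71%), against 8.25% of all probe sets. Both were lower, Aurka and Bub1b. With the replicate block 6 passed (17.1%), against 12.1%: Cdkn2c higher, and Cdk2, Mcm2, Mcm6, Aurka and Bub1b lower. At an unadjusted p under 0.05, 1 was higher and 6 lower (20% against 20.5%). The arrays did not overlap for 3 higher and 3 lower genes (17.1%), against 23.4%.

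**Figure D3:**
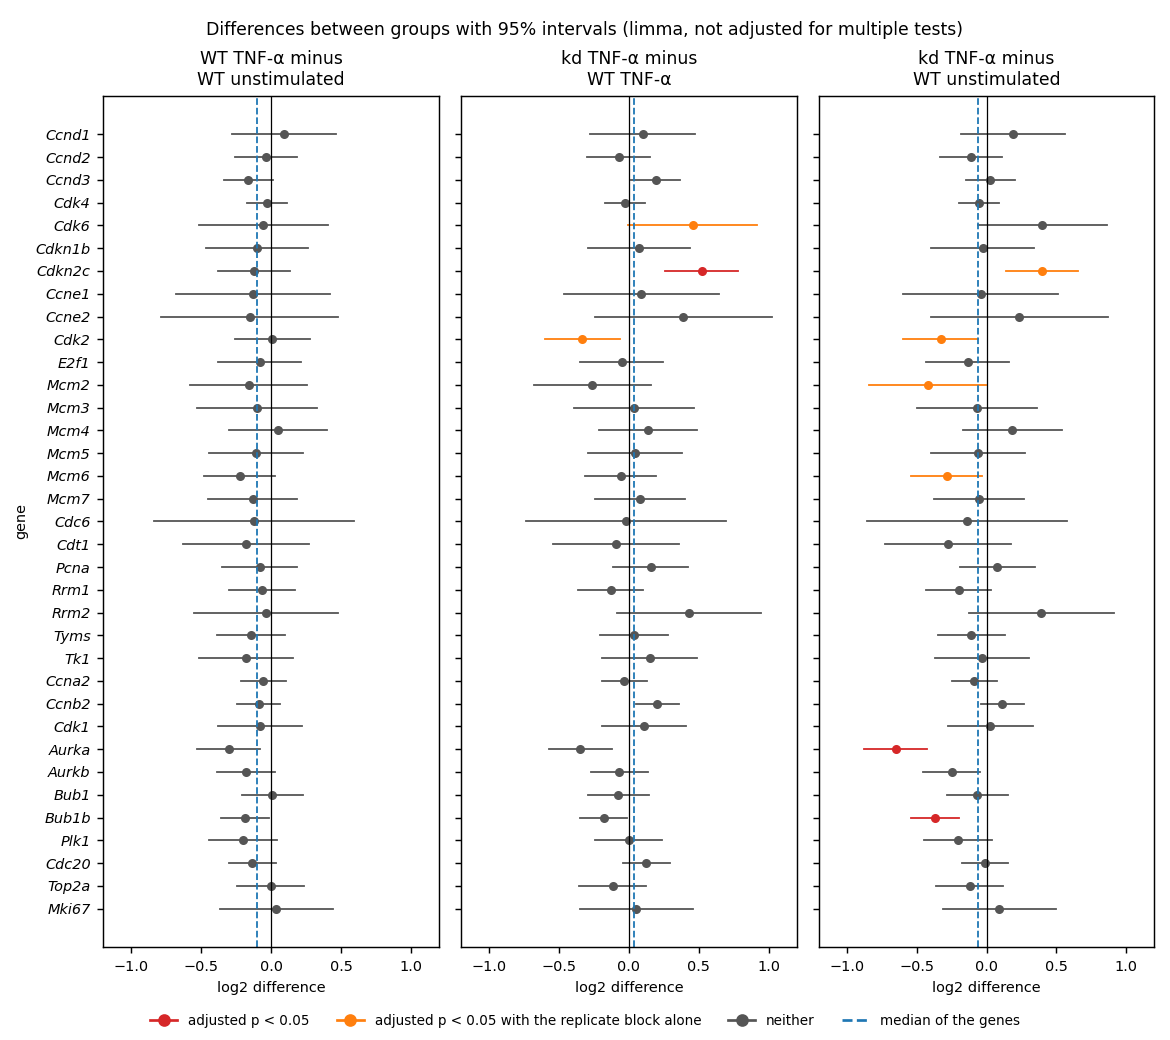
Log2 differences of 35 genes (rows, in the order of the heat map) in the 3 comparisons (panels), with 95% intervals from limma; red marks an adjusted p under 0.05, orange an adjusted p under 0.05 with the replicate block alone, and the dashed line the median of the genes. In the left panel 30 of 35 points lie below 0 and none is coloured; Cdkn2c is red in the middle panel, and Aurka and Bub1b in the right one.

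The D cyclins and their kinases open G1. Cdk6, a kinase that D cyclins activate, had a log2 signal of 8.88, 8.94 and 8.29 in unstimulated wild-type cells, 8.79, 8.89 and 8.26 in stimulated wild-type cells, and 9.28, 9.06 and 8.97 in knock-down cells. All knock-down arrays were above all wild-type arrays, and array 3 was the lowest of each group. The knock-down difference of Cdk6 was 0.46 (SE 0.20, 95% interval -0.0048 to 0.92, 1.37-fold). This did not pass limma's test without the block (adjusted p = 0.29) and passed with it (adjusted p = 0.046), the same-numbered pairs differing by 0.49, 0.17 and 0.71; without stimulated wild-type array 3 the difference was 0.26. TNF-α gave a difference of -0.06 (SE 0.20).

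The other genes of this role had smaller knock-down differences. Cdk4, the partner kinase, had means of 12.11, 12.08 and 12.05 in unstimulated, stimulated and knock-down cells, with SDs of 0.03 to 0.05. Ccnd3, a D cyclin, had the lowest signal in stimulated wild-type cells (6.40, 6.38 and 6.38, against 6.51, 6.62 and 6.52 unstimulated and 6.50, 6.50 and 6.72 in knock-down cells). The stimulated wild-type arrays overlapped neither other group, but the differences of -0.16 with TNF-α and 0.19 with the knock-down did not pass (limma adjusted p = 0.71 and 0.24). Ccnd1 and Ccnd2, the other D cyclins, differed by between -0.11 and 0.19 in the 3 comparisons.

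Among the inhibitors, Cdkn2c rose. This gene of the INK4 family encodes an inhibitor of Cdk4 and Cdk6. Its log2 signal was 7.70, 7.64 and 7.62 in unstimulated wild-type cells, 7.46, 7.51 and 7.62 in stimulated wild-type cells, and 7.83, 8.01 and 8.31 in knock-down cells. Every knock-down array was above every wild-type array, and the knock-down arrays were spread more widely (SD 0.24) than the unstimulated (0.04) and stimulated (0.08) arrays. The knock-down difference was 0.52 (SE 0.11, 1.43-fold, limma adjusted p = 0.030; 0.37, 0.50 and 0.69 in the same-numbered pairs). The call was lost in 6 of the 9 fits that left out 1 array (unstimulated 1 or 2, stimulated 1 or 2, knock-down 2 or 3), where the adjusted p was 0.052 to 0.118, with differences of 0.39 to 0.54. Against unstimulated wild-type cells the difference was 0.39, which passed with the block alone (limma adjusted p = 0.072 without it and 0.048 with it).

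Cdkn1b, the other inhibitor, had means of 8.65 ± 0.21, 8.55 ± 0.22 and 8.62 ± 0.26 (SD, n = 3) in the 3 groups, which overlapped throughout. Its knock-down difference was 0.07 (95% interval -0.29 to 0.44), and another, dimmer probe set of it gave 0.30, and -0.22 with TNF-α against -0.10. Because Cdkn2c was the gene called in the knock-down comparison, the 150 bases before its annotated start are shown, from the RefSeq annotation of GRCm38.p6 (chr4:109666757-109666906, minus strand); capitals mark GC boxes (GGGCGG, searched on both strands), which are in 35.7% of all 32851 promoter windows and in 26 of 33 windows of these genes.
Cdkn2c: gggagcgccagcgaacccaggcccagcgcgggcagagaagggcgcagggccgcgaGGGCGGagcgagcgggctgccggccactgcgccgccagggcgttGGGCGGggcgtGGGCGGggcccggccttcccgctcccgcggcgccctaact
A letter pattern for NF-κB (GGG and TTTCC with any pair of bases between them, both strands) was found in 1.63% of all windows and in 0 of these 33, which says only that these letters are not in these windows.

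**Figure D4:**
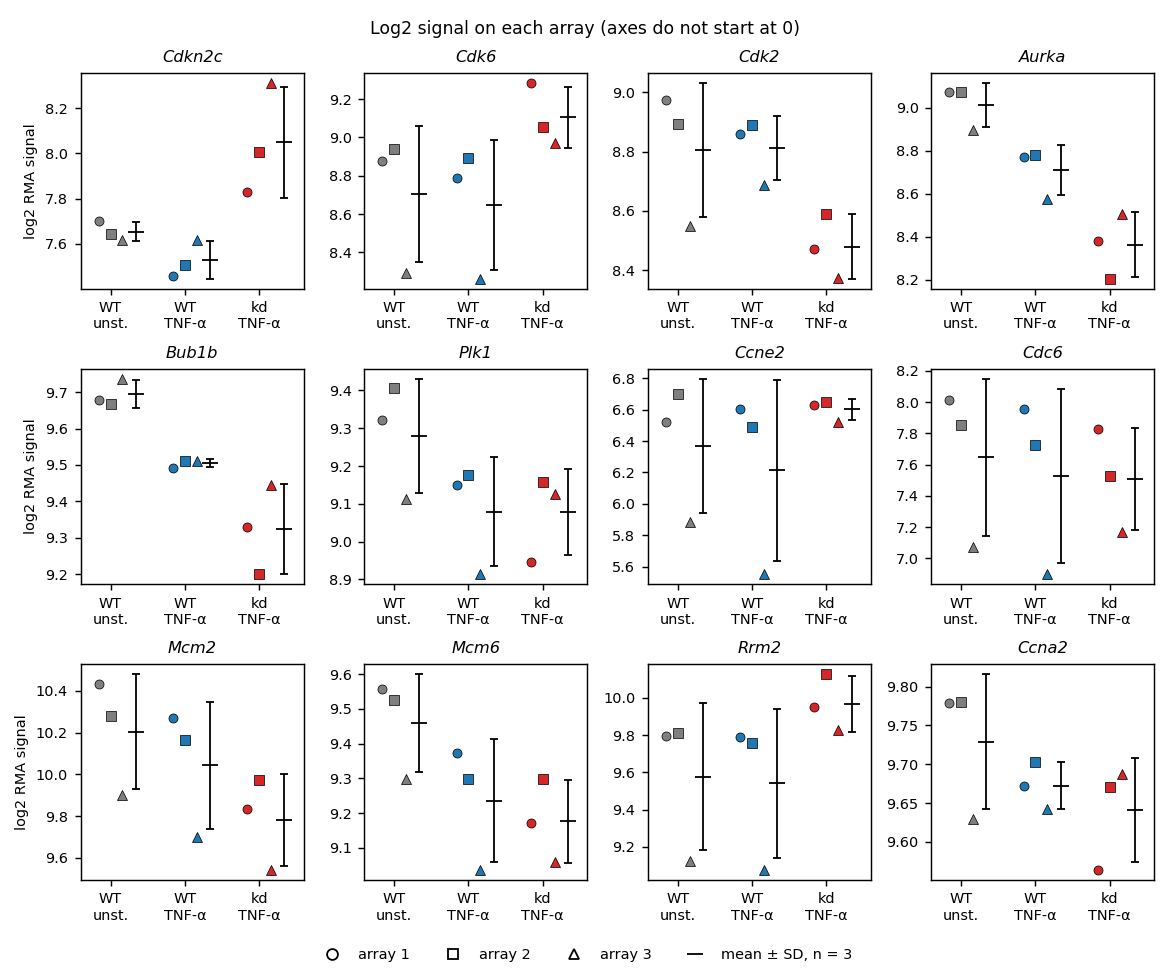
Log2 signal of 12 genes (panels) on each array, with unstimulated wild-type cells in grey, stimulated wild-type cells in blue and stimulated knock-down cells in red; circles, squares and triangles are arrays 1, 2 and 3, and bars the mean ± SD of 3 arrays, on axes that do not start at 0. Knock-down arrays lie above all others for Cdkn2c and Cdk6, Aurka and Bub1b descend over the 3 groups, and array 3 is lowest in each group for Cdc6, Mcm2 and Mcm6.

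E cyclins with Cdk2 carry cells into S phase. Cdk2 had a log2 signal of 8.97, 8.89 and 8.55 in unstimulated wild-type cells, 8.86, 8.89 and 8.69 in stimulated wild-type cells, and 8.47, 8.59 and 8.37 in knock-down cells. The knock-down arrays were below all stimulated wild-type arrays and overlapped the unstimulated ones through array 3. The knock-down difference was -0.33 (SE 0.12; -0.39, -0.30 and -0.31 in the same-numbered pairs), with a limma adjusted p of 0.17 without the block and 0.043 with it. Against unstimulated cells it was also -0.33 (adjusted p = 0.15 without the block and 0.039 with it). TNF-α gave a difference of 0.01 (SE 0.12).

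Ccne2, an E cyclin, had a log2 signal of 6.52, 6.70 and 5.88 in unstimulated wild-type cells, 6.60, 6.49 and 5.55 in stimulated wild-type cells, and 6.63, 6.65 and 6.52 in knock-down cells. The groups overlapped, and array 3 of each wild-type group was far below the others while knock-down array 3 was near them. The knock-down difference of 0.39 had an SE of 0.28 (limma adjusted p = 0.56), with 0.03, 0.16 and 0.97 in the same-numbered pairs, and was 0.06 without stimulated wild-type array 3 and 0.58 without array 1 of that group. Ccne1, the other E cyclin, had the same kind of array 3 gap (-0.75, -0.71 and -0.21 in the 3 groups) and a knock-down difference of 0.09 (SE 0.25). E2f1, the transcription factor released by RB, differed by -0.08 with TNF-α and by -0.05 with the knock-down (SE 0.13 each).

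Origin licensing loads the Mcm2 to Mcm7 helicase with the help of Cdc6 and Cdt1. Mcm6, which had the largest TNF-α difference of these genes, had a log2 signal of 9.56, 9.52 and 9.30 in unstimulated wild-type cells, 9.37, 9.30 and 9.04 in stimulated wild-type cells, and 9.17, 9.30 and 9.06 in knock-down cells. The groups overlapped, array 3 was lowest in each, and every stimulated array was below its same-numbered unstimulated array. The TNF-α difference was -0.22 (SE 0.11, limma adjusted p = 0.72; -0.18, -0.23 and -0.26 in the pairs) and -0.12 without stimulated array 3, and the knock-down difference was -0.06 (SE 0.11). Between unstimulated and knock-down cells it was -0.28, with an adjusted p of 0.19 without the block and 0.044 with it.

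Mcm2, another helicase subunit, had a log2 signal of 10.43, 10.28 and 9.90 in unstimulated wild-type cells, 10.27, 10.16 and 9.70 in stimulated wild-type cells, and 9.83, 9.97 and 9.54 in knock-down cells. Each number descended from unstimulated to stimulated to knock-down cells, although the groups overlapped. The difference between unstimulated and knock-down cells was -0.42 (SE 0.19), with a limma adjusted p of 0.24 without the block and 0.015 with it. Mcm4 differed the other way, by 0.19 (SE 0.16, adjusted p = 0.57), and the remaining helicase genes Mcm3, Mcm5 and Mcm7 by -0.05 to -0.07.

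Cdc6 had the widest array 3 gap of the 35 genes on the mean of the 3 groups (-0.77), with a log2 signal of 8.01, 7.86 and 7.08 in unstimulated wild-type cells, 7.96, 7.72 and 6.90 in stimulated wild-type cells, and 7.83, 7.53 and 7.17 in knock-down cells. The groups overlapped almost wholly. The TNF-α and knock-down differences of -0.12 and -0.02 each had an SE of 0.32, so that the 95% intervals ran from -0.84 to 0.59 and from -0.73 to 0.70. Cdt1, its partner in loading, differed by -0.18 and -0.09 (SE 0.20 each).

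Letters like those that E2F factors bind (TTTCCCGC, TTTCGCGC, TTTGCCGC or TTTGGCGC, searched on both strands of the window from 250 bases before to 50 after each start) were in 2.26% of all 32851 windows and in 8 of 33 windows of the 30 genes with an entry. Of the 8, 6 belonged to licensing genes (Mcm3, Mcm5, Mcm6, Mcm7, Cdc6 and Cdt1, out of 7 with an entry), and the others to Cdk2 and Cdk1. No match was found for the 5 fork and nucleotide genes. Nor was one found for Mcm2, also called with the block, or for Ccne1 and Rrm2, with mean array 3 gaps of -0.56 and -0.53. Among the genes with a match, Cdc6 was picked for its wide array 3 gap, and Mcm6 and Cdk2 for a call with the block. The stretches below, with those letters in capitals, hold 30 bases around the Cdc6 match and 150 bases before the start of Mcm6 and Cdk2. They come from the RefSeq annotation of GRCm38.p6, at chr11:98908001-98908030 on the plus strand for Cdc6, chr1:128359706-128359855 on the minus strand for Mcm6, where a pair of matches on opposite strands overlap, and chr10:128705052-128705201 on the minus strand for Cdk2.
Cdc6: ggccggtggagaGCGGGAAAtcgcctgggg
Mcm6: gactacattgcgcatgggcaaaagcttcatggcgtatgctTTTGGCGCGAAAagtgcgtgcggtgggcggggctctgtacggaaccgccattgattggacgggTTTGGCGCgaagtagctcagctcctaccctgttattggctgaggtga
Cdk2: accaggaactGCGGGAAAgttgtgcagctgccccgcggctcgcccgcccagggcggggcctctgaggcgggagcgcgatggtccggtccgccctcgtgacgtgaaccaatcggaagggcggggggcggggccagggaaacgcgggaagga
A match of letters is a description of the sequence and not a measured binding site.

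The 5 fork and nucleotide genes had their lowest signal on array 3 in both wild-type groups. Rrm2, the small subunit of ribonucleotide reductase, which makes deoxynucleotides, had a log2 signal of 9.80, 9.81 and 9.12 in unstimulated wild-type cells, 9.79, 9.76 and 9.08 in stimulated wild-type cells, and 9.95, 10.13 and 9.83 in knock-down cells. All knock-down arrays were above all wild-type arrays, although the lowest of them was just above the highest wild-type array. The knock-down difference was 0.43 (SE 0.23; 0.16, 0.37 and 0.75 in the pairs), with a limma adjusted p of 0.40 without the block and 0.065 with it. Without stimulated wild-type array 3 it was 0.20.

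Rrm1, the large subunit of the same enzyme, differed the other way, by -0.13 with the knock-down (SE 0.10, limma adjusted p = 0.60). Pcna, the sliding clamp of the fork, differed by 0.16 (SE 0.12); another probe set annotated to it had nearly the same values, so both may report the same transcripts. Tyms and Tk1, which supply thymidine nucleotides, differed by 0.04 and 0.15; another probe set of Tk1 gave 0.04, and -0.09 with TNF-α. With TNF-α all 5 genes lay below 0, between -0.04 and -0.18, and each was lower in all 3 pairs, with adjusted p-values of 0.78 to 0.98 in limma.

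A and B cyclins with Cdk1 act from S phase into mitosis. Ccna2, the A cyclin of dividing somatic cells, had a log2 signal of 9.78, 9.78 and 9.63 in unstimulated wild-type cells, 9.67, 9.70 and 9.64 in stimulated wild-type cells, and 9.56, 9.67 and 9.69 in knock-down cells. The groups overlapped, with differences of -0.06 for TNF-α and -0.03 for the knock-down (SE 0.07 each). Ccnb2, a B cyclin, had a log2 signal of 9.38, 9.44 and 9.43 in knock-down cells and 9.19, 9.26 and 9.19 in stimulated wild-type cells. These did not overlap, but the difference of 0.20 did not pass limma's test (SE 0.07, adjusted p = 0.15). Cdk1, the kinase that drives mitosis, differed by -0.08 and 0.11 (SE 0.13 each).

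The mitotic kinases and checkpoint genes held both genes that fell from unstimulated wild-type to stimulated knock-down cells. Aurka, the kinase of centrosomes and spindle poles, had a log2 signal of 9.07, 9.07 and 8.90 in unstimulated wild-type cells, 8.77, 8.78 and 8.58 in stimulated wild-type cells, and 8.38, 8.20 and 8.51 in knock-down cells. The 3 groups did not overlap, in descending order. Aurka fell by 0.65 from unstimulated to knock-down cells (SE 0.10, 1.57-fold, limma adjusted p = 0.0044), and by 0.69, 0.87 and 0.39 in the same-numbered pairs. Taken apart, the TNF-α difference was -0.30 (limma adjusted p = 0.64) and the knock-down difference -0.35 (adjusted p = 0.088), and neither passed. In the same-numbered pairs the knock-down difference was -0.39, -0.58 and -0.07. It passed in none of the 9 fits that left out 1 array (limma adjusted p = 0.071 to 0.26). Without the arrays numbered 3, an alternative chosen after seeing the data, the knock-down difference was -0.48 and passed (adjusted p = 0.039).

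Bub1b, which encodes the checkpoint protein BubR1, had a log2 signal of 9.68, 9.67 and 9.74 in unstimulated wild-type cells, 9.49, 9.51 and 9.51 in stimulated wild-type cells, and 9.33, 9.20 and 9.44 in knock-down cells. These groups also descended without overlap. Bub1b fell by 0.37 from unstimulated to knock-down cells (SE 0.08, 1.29-fold, limma adjusted p = 0.017; by 0.35, 0.47 and 0.29 in the pairs), with a TNF-α difference of -0.19 and a knock-down difference of -0.18 (adjusted p = 0.68 and 0.25). The call was lost without unstimulated array 1 or knock-down array 1, with limma adjusted p-values of 0.051 and 0.052.

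All 6 genes of this role were below 0 between unstimulated and knock-down cells, with a median of -0.23 against -0.01 for all probe sets. So were 7 of 8 licensing genes (median -0.10), 24 of all 35 genes (median -0.06) and 52.5% of all probe sets. After quantile normalization 5 of the 6 genes of this role were below 0. Plk1, a kinase of mitotic entry and exit, had a log2 signal of 9.32, 9.41 and 9.11 in unstimulated wild-type cells, 9.15, 9.18 and 8.91 in stimulated wild-type cells, and 8.95, 9.16 and 9.13 in knock-down cells. The stimulated array was lower in each pair, but the groups overlapped (TNF-α difference -0.20, or -0.12 without stimulated array 3, SE 0.11, limma adjusted p = 0.72; knock-down difference 0.00, SE 0.11). Aurkb, the kinase of the chromosomal passenger complex, differed by -0.18 with TNF-α and by -0.25 between unstimulated and knock-down cells (adjusted p = 0.72 and 0.15). Bub1, a checkpoint kinase, and Cdc20, which activates the anaphase-promoting complex, differed by -0.07 and -0.01 in the latter comparison.

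The letters TTTGAA, known as CHR, the element through which MuvB binds, were in 17.9% of all windows on either strand, and in 9 of 33 windows of these genes. The 9 were Aurka, Bub1b, Plk1, Cdc20, Ccnb2, Cdk1, Top2a, Mki67 and Mcm2, so that 4 of the 5 mitotic kinase and checkpoint genes with an entry held them and 1 of 7 licensing genes did. CCAAT boxes (CCAAT, either strand) were in all 5 of these mitotic genes, in 5 of 7 licensing genes, in 23 of all 33 windows of the genes and in 37.4% of all windows. For the 2 genes that fell, 30 bases around a CCAAT box before the start and bases 21 to 50 after it are shown, with CCAAT or TTTGAA, or their reverse complement, in capitals. In GRCm38.p6 of RefSeq they lie at chr2:172370572-172370601 and chr2:172370521-172370550 on the minus strand for Aurka, and at chr2:118598085-118598114 and chr2:118598231-118598260 on the plus strand for Bub1b.
Aurka, CCAAT: ctccggctctagCCAATcagctcttggagt
Aurka, CHR: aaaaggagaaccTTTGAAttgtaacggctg
Bub1b, CCAAT: tgctaggacaaccATTGGtccttgcacctc
Bub1b, CHR: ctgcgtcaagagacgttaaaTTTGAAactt
Plk1 and Cdc20, which did not pass the test, held both kinds of letters as well.

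Top2a, the topoisomerase that untangles chromosomes, had a log2 signal of 9.86, 9.97 and 9.67 in unstimulated wild-type cells, 9.89, 9.76 and 9.84 in stimulated wild-type cells, and 9.78, 9.52 and 9.83 in knock-down cells. The groups overlapped, and its differences were 0.00 for TNF-α and -0.12 for the knock-down (SE 0.11 each). Mki67, the gene of the Ki-67 antigen, differed by 0.04 and 0.05 (SE 0.18 each), with 95% intervals of -0.36 to 0.44 and -0.35 to 0.46. Its signal was 0.54 and 0.43 lower on array 3 of the unstimulated and stimulated wild-type groups and 0.04 lower in knock-down cells.

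Other genes of the same pathways, from lists drawn up by function, were measured beside them. Of 33 other replication factors (polymerases, origin and clamp-loader subunits and the like), 0 passed the test in any comparison without the block. With it 2 were lower between unstimulated and knock-down cells (Rfc5 and Ung), where 12.1% of all probe sets were called. For TNF-α 28 of the 33 were below 0 (median -0.09), and 16 had array 3 lowest in all 3 groups. At an unadjusted p under 0.05, limma gave 0 for TNF-α, against 7.1% of all probe sets. It gave 2 higher and 1 lower for the knock-down, against 17.4%, and 1 higher and 3 lower between unstimulated and knock-down cells, against 20.5%. Of 36 other mitosis genes, 3 had array 3 lowest in all groups and 33 were below 0 for TNF-α (median -0.14), again with 0 called; 5 were lower and 0 higher at an unadjusted p under 0.05, against 7.1% of all probe sets. Between unstimulated and knock-down cells 3 of the 36 fell and 1 rose, against 8.25% of all, while 25 of the 36 were below 0 (median -0.10). The 3 were Ncapd2, a condensin subunit (by 0.48, limma adjusted p = 0.0048), Kif20a, a kinesin of cytokinesis (by 0.42, adjusted p = 0.024), and Cdca3 (by 0.32, adjusted p = 0.026). Anln, the cytokinesis scaffold anillin, rose by 0.46 there (adjusted p = 0.036) and by 0.54 in the knock-down comparison (adjusted p = 0.023).

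Of 18 genes of the RB and E2F families and their partners, 1 passed in the knock-down comparison (5.96% of all probe sets did), Lin52, a subunit of the MuvB complex, which rose by 0.49 (limma adjusted p = 0.0063). With the block Tfdp1, a partner of E2F factors, was also called, at -0.33 (adjusted p = 0.32 without the block and 0.031 with it). Of 25 other CDK inhibitors and regulators, 2 rose and 1 fell there, and with the block, where 9% of all probe sets were called, 3 were higher (Ccng2, Btg2 and Tob1) and 1 lower. Gas1, a growth-arrest gene of the cell surface, fell by 1.25 (adjusted p = 0.0070). Tob1, an antiproliferative gene, rose by 0.49, and Mnat1, a subunit of the CDK-activating kinase, by 0.31 (adjusted p = 0.0486 and 0.0496). Btg2, a relative of Tob1 and an early-response gene, was 1.66 higher with TNF-α, which passed with the replicate block alone (limma adjusted p = 0.13 without it and 0.0018 with it), and it rose by 2.59 between unstimulated and knock-down cells (adjusted p = 0.0012).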

How the data were processed

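The authors deposited log2 values from RMA (version not stated), which corrects background, normalizes arrays to one another and summarises each probe set; 9 Affymetrix Mouse Gene ST arrays of total RNA were used as deposited, from 3 cultures per group, and their number limits the precision. Probe sets were named through the platform annotation, 1621 with several genes naming none; a gene with several probe sets (4 of 35) is given by the brightest. All 9 arrays entered 1 limma model of 3 groups (limma 3.58.1, R 4.3.3, 3.20 prior degrees of freedom), tested on simulated data, with Benjamini-Hochberg adjustment over 23410 probe sets and a threshold of 0.05. Deviations of same-numbered arrays correlated (0.110 to 0.403 for TNF-α, 0.147 to 0.465 for the knock-down, 0.0022 to 0.221 between unstimulated and knock-down cells), so the block on the number is an alternative fit; the pairing rests on these correlations alone. The genes and lists were chosen with earlier results of these data known. Values per array are given for genes called, for those with the 6 largest knock-down and 4 largest TNF-α differences, for 1 gene per remaining role, and for others that a described pattern turns on. Lists held 114 genes beside the 36, of which 112 matched. The alternatives were other scalings, filters, fits, probe sets, and arrays left out. Promoter windows came from a RefSeq table (GRCm38.p6), which held 30 of the 36 genes.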

Additional observations from a re-analysis of the deposited data

How the results depend on the processing

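For TNF-α, 0 of the 35 genes were called under every alternative run. The count of 1 for the knock-down became 3 with the replicate block, 2 after quantile normalization (Cdkn2c and Aurka), and 0 with all probe sets tested, with only the 6 arrays compared or with an ordinary linear model; leaving out 1 array gave 0 to 1. Without the arrays numbered 3, an alternative chosen after seeing the data, it was again 1, but Aurka in place of Cdkn2c (adjusted p = 0.057 in limma). The count of 2 between unstimulated and knock-down cells became 6 with the block, 3 after quantile normalization and with dim probe sets left out (Cdkn2c added in both), 1 with only the 6 arrays compared (Aurka), 4 without the arrays numbered 3 (Cdk2, Aurka, Aurkb and Bub1b) and 1 to 3 with 1 array left out. The causes were not tested. Signs turned only for differences that did not pass the test. For TNF-α, Cdk2 came to -0.0483 after array median centring and -0.0589 without the arrays numbered 3, and Top2a to 0.0194 after quantile normalization and 0.0795 on its other probe set, which gave 0.000207 between unstimulated and knock-down cells. The knock-down difference came to 0.0555 for Plk1 and 0.0259 for Ccna2 after centring. With 1 array left out, TNF-α differences ranged from -0.40 to 0.18 for Ccne2, -0.121 to 0.0918 for Cdk2, -0.26 to 0.14 for Cdk6, -0.26 to 0.20 for Rrm2 and -0.0831 to 0.0623 for Top2a. Knock-down differences ranged from -0.0550 to 0.00704 for Ccna2, -0.160 to 0.00839 for Mcm6 and -0.0848 to 0.0633 for Plk1, and the difference between unstimulated and knock-down cells from -0.0101 to 0.398 for Ccne2. Of the remaining values of single genes, 575 kept their side of 0 and of the threshold, 12 newly passed it and 13 lost it. Many of the 575 could not change their side of 0. A change of the test or filter alone left a difference as it was, as did leaving out an array of a group not compared. The alternative of another probe set repeated the main value for each gene counted here except Top2a. The number of arrays limits all of these: the median SE of a difference was 0.12 on the log2 scale.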
